A study of Mus musculus with 36 samples.

Results

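Nckap5 and Cdh4 are a pair of genes whose transcripts were higher in the heart of older than of younger mice in a series of 36 whole-tissue RNA sequencing libraries. Both were chosen by their measured CPM in these libraries, for the rise with age in heart, its course over the 3 ages and its absence in other tissues, so their levels and changes are given as a description and carry no p-value. They are 2 of the 78239 genes in the count files and 2 of the 15137 genes with enough counts to be fitted in heart. All animals were untreated males of genotype WT (wild type) and strain C57BL/6NCrl, an inbred line in wide laboratory use. Their age at collection of heart, kidney and liver was 8, 10 or 12 weeks, with 4 libraries of polyadenylated RNA in each of the 9 groups. The study's methods call the 4 libraries of a group biological replicates, and the labels do not tie the tissues to animals.

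Cdh4 encodes R-cadherin, also called retinal cadherin, a classical cadherin. Classical cadherins span the cell membrane, bind cadherins of the neighbouring cell in the presence of calcium and are joined inside the cell to actin by catenins. In the myocardium the leading cadherin of cardiomyocytes is N-cadherin, encoded by Cdh2, which holds the cells together end to end at the intercalated disc, and R-cadherin can pair with it. Nckap5 encodes a large protein named for its binding to the NCK adaptors, which join receptor tyrosine kinases to the actin cytoskeleton. Its closest relative, Nckap5l, also called Cep169, encodes a protein of centrosomes and growing microtubule ends.

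On the GRCm39 build Nckap5 (ENSMUSG00000049690) lies on the minus strand of chromosome 1 from 125841251 to 126758536, a span of 917286 bases with 12419 bases of exon sequence in 23 blocks. Cdh4 (ENSMUSG00000000305) lies on the plus strand of chromosome 2 from 179084201 to 179541166, a span of 456966 bases with 7280 exon bases in 19 blocks. Within the introns of Nckap5 5 other genes are annotated, and within those of Cdh4 6. None of them shares an exon base with its host, and in no library did any of them exceed 6 counts inside Nckap5 or 2 inside Cdh4. RefSeq places 2 starts of Nckap5 on GRCm38.p6, 337.705 kb apart. They are shown because transcripts from both starts fall into the same count, so the counts do not tell which start was in use. Each window runs from 250 bases before the start to 50 after it on the minus strand, at chr1:126830583-126830882 for the upstream start and chr1:126492878-126493177 for the downstream start.

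Nckap5 upstream start: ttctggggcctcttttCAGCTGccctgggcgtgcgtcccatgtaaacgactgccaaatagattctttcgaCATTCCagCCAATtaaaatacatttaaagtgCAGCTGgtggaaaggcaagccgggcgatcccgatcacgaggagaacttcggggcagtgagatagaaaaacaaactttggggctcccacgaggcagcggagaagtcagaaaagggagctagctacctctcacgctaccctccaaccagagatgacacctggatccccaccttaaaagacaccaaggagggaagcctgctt
Nckap5 downstream start: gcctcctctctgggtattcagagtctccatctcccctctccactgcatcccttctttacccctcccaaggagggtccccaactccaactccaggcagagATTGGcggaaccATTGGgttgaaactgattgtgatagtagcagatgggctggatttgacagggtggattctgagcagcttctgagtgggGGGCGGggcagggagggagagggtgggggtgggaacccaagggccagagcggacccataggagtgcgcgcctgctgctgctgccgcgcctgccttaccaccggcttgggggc

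Capitals mark matches, on either strand, to 7 short motifs that were searched. These were the CCAAT box (CCAAT), the GC box (GGGCGG), the TATA box (TATAAA), a TEAD motif (CATTCC), a zinc-finger factor motif (AGATAA), a clock E-box (CACGTG) and a further E-box (CAGCTG). The upstream window held CCAAT 1 time, CATTCC 1 time and CAGCTG 2 times, motifs found in 37.4%, 14.7% and 16.3% of 32851 promoter windows of the same length. The downstream window held CCAAT 2 times, both on the other strand and written there as ATTGG, and GGGCGG 1 time, a motif of 35.7% of the windows. TATAAA (13.6% of the windows), AGATAA (11.2%) and CACGTG (7.15%) were in neither. The guanine and cytosine content was 52.3% upstream and 61.7% downstream, beside a median of 52.7% over all windows.

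The libraries held 21031599 to 33637390 counted read pairs, and the 12 heart libraries 21743131 to 29791297. Levels are given as CPM, the counts of a gene scaled to 1000000 pairs counted on genes in that library. In heart, counted pairs made up 70.2% to 71.7% of a library at 8 weeks, 70.4% to 71.7% at 10 weeks and 71.8% to 73.2% at 12 weeks, so the 12-week libraries lay above the others. Cardiomyocyte markers stood as the labelled tissue requires, since Myh6, the main myosin heavy chain of the adult mouse heart, lay between 19688 and 26882 CPM in heart, at or under 1.36 CPM in kidney and at 0 in every liver library.

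Nckap5 rose in heart without overlap between the libraries of different ages. At 8 weeks the 4 heart libraries held 3.81, 4.26, 3.13 and 4.78 CPM, from 70 to 126 counts. At 10 weeks they held 5.83, 6.90, 9.11 and 7.06 CPM, and at 12 weeks 10.4, 9.99, 12.6 and 9.89 CPM. The lowest library of each older age lay above the highest of the age before it. Group means were 3.99 ± 0.700, 7.23 ± 1.37 and 10.7 ± 1.25 CPM (SD, n = 4). On the log2 scale of edgeR's fit the change was 1.39 ± 0.14 (SE) at 12 against 8 weeks, 0.84 ± 0.14 at 10 against 8 weeks and 0.55 ± 0.13 at 12 against 10 weeks. Of the rise in mean CPM between 8 and 12 weeks, 48.1% was present at 10 weeks, so the level did not reach its 12-week value in a single step.

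Cdh4 was scarcer and followed the same order in heart. Its 8-week libraries held 0.851, 1.22, 1.07 and 1.48 CPM, from 21 to 38 counts. The 10-week libraries held 2.09, 1.84, 1.93 and 2.15 CPM and lay close together. The 12-week libraries held 4.35, 3.52, 2.58 and 3.57 CPM, from 77 to 99 counts, and again none overlapped the age before. Group means were 1.15 ± 0.262, 2.00 ± 0.141 and 3.51 ± 0.722 CPM (SD, n = 4). The log2 change was 1.56 ± 0.21 (SE) at 12 against 8 weeks, with 0.79 ± 0.22 between 8 and 10 weeks and 0.77 ± 0.20 between 10 and 12 weeks. By 10 weeks 36.1% of the rise in mean CPM was present.

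**Figure D1:**
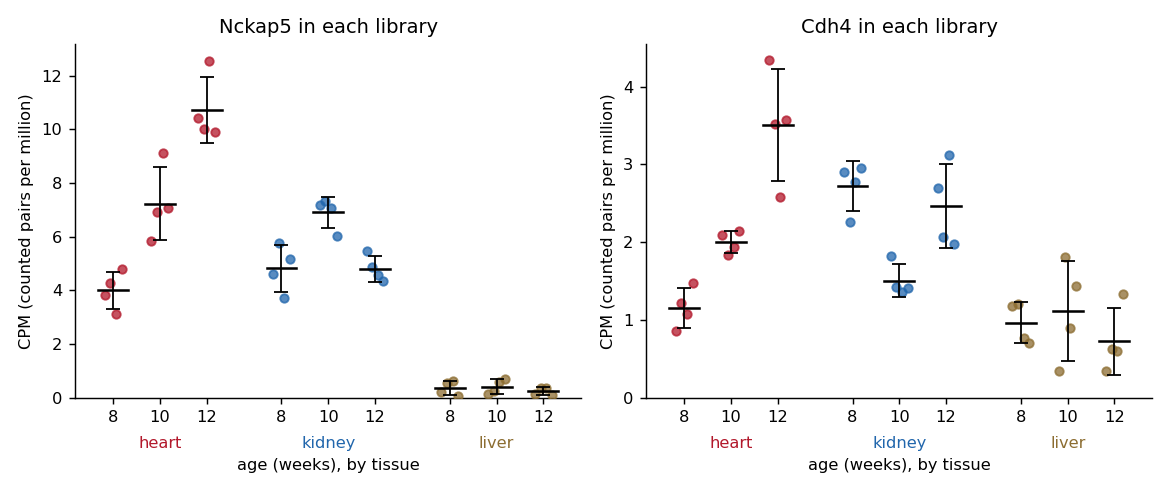
Points give the level of Nckap5 (left) and Cdh4 (right) in each of the 36 libraries as CPM by tissue and age in weeks, with a line at the group mean and bars of 1 SD (n = 4). In heart the 3 ages do not overlap for either gene, from 3.13 CPM at the lowest to 12.6 CPM at the highest for Nckap5 and from 0.851 to 4.35 CPM for Cdh4.

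Since this separation chose both genes, its frequency among other genes is given only as background. Among all 15137 fitted heart genes 8.49% were higher at 12 than at 8 weeks without overlap between the libraries, 4.14% at 10 than at 8 weeks and 3.56% at 12 than at 10 weeks. A climb through all 3 ages without overlap was found in 9 genes, or 0.0595%. Besides Nckap5 and Cdh4 these were Acsl1, which activates long-chain fatty acids, Dynll2, a dynein light chain, Huwe1, a ubiquitin ligase, Pcca, a subunit of propionyl-CoA carboxylase, Pigk, of the enzyme that attaches GPI anchors, Prune2 and Sqor, the mitochondrial sulfide oxidising enzyme. These names were listed after their values were seen. Larger log2 changes at 12 against 8 weeks than that of Nckap5 were fitted for 49 heart genes, and larger than that of Cdh4 for 34.

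In kidney neither gene was higher at 12 than at 8 weeks, but both stood apart at 10 weeks, in opposite directions. The kidney libraries held 4.60, 5.78, 3.70 and 5.18 CPM of Nckap5 at 8 weeks, 7.17, 7.32, 7.08 and 6.03 CPM at 10 weeks, and 5.45, 4.85, 4.55 and 4.33 CPM at 12 weeks. All 4 libraries of 10 weeks therefore lay above those of the other ages. Nckap5 changed by a log2 of 0.50 ± 0.13 (SE) at 10 against 8 weeks, by -0.48 ± 0.13 at 12 against 10 weeks and by 0.02 ± 0.13 over the whole interval. Cdh4 held 2.91, 2.26, 2.77 and 2.96 CPM at 8 weeks, 1.83, 1.43, 1.36 and 1.41 CPM at 10 weeks, and 2.69, 2.06, 3.12 and 1.98 CPM at 12 weeks. Here all 4 libraries of 10 weeks lay below those of the other ages. Its log2 changes were -0.88 ± 0.18 at 10 against 8 weeks, 0.75 ± 0.18 at 12 against 10 weeks and -0.13 ± 0.17 at 12 against 8 weeks. At 10 against 8 weeks 5.24% of the 17649 fitted kidney genes were higher and 3.43% lower without overlap, and at 12 against 10 weeks 3.14% were higher and 5.96% lower. A list of 13 circadian clock genes was fitted in full in heart and kidney, and 12 of them in liver. At 10 against 8 weeks 9, 9 and 8 had an unadjusted p under 0.05 by edgeR (15.8%, 16.5% and 14.3% of all genes). At 12 against 8 weeks 4, 3 and 3 did (23.4%, 11.7% and 15.1%). None passed an adjusted p of 0.05 at either comparison. The part of the clock in the levels at 10 weeks was not tested.

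Liver held little of either transcript. Nckap5 lay between 0.0442 and 0.684 CPM over the 12 liver libraries, from 1 to 21 counts, with means of 0.349 ± 0.271, 0.410 ± 0.270 and 0.241 ± 0.136 CPM at 8, 10 and 12 weeks (SD, n = 4). Cdh4 lay between 0.335 and 1.81 CPM, from 8 to 61 counts, with means of 0.963 ± 0.265, 1.12 ± 0.645 and 0.722 ± 0.427 CPM. The ages overlapped for both genes. Log2 changes at 12 against 8 weeks were -0.49 ± 0.68 (SE) for Nckap5 and -0.39 ± 0.49 for Cdh4, so that changes of the size fitted in kidney at 10 weeks were not detectable in liver at this depth.

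Ordered by mean CPM, Nckap5 was highest in heart at 12 weeks, which overlapped with no other group. Heart at 10 weeks (7.23 CPM) and kidney at 10 weeks (6.90 CPM) followed and overlapped each other. A gap separated them from kidney at 8 weeks, kidney at 12 weeks and heart at 8 weeks, which each overlapped the next. All of these lay above the 3 liver groups without overlap. Heart thus passed from 0.830 times the kidney level at 8 weeks to 2.23 times at 12 weeks. The order at 8 weeks depends on the denominator of CPM. With mitochondrial genes left out of it, heart at 8 weeks held 5.69 CPM of Nckap5. Kidney at 8 weeks did not exceed 5.35 CPM under any of the 4 settings, so heart was not below kidney there. For Cdh4 the order ran from heart at 12 weeks (3.51 CPM) through kidney at 8 weeks (2.72 CPM) and 12 weeks (2.46 CPM) to heart at 10 weeks (2.00 CPM), and each of these neighbours overlapped. A gap separated heart at 10 weeks from kidney at 10 weeks (1.51 CPM), which overlapped with heart at 8 weeks (1.15 CPM), and heart at 8 weeks overlapped with liver. The heart level of Cdh4 went from 0.423 to 1.42 times that of kidney between 8 and 12 weeks.

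**Figure D2:**
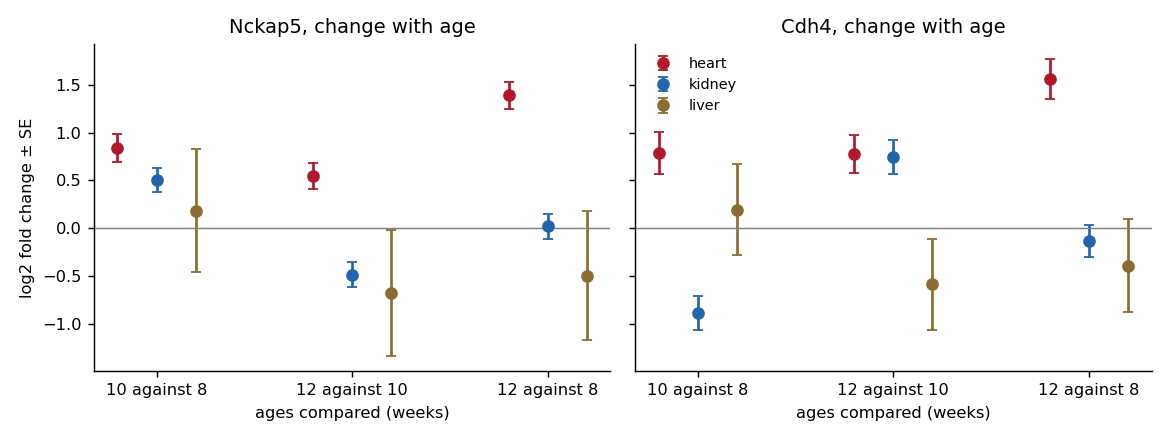
Log2 fold changes of Nckap5 (left) and Cdh4 (right) between ages, from edgeR's fit of each tissue, with bars of 1 SE, for heart, kidney and liver (4 libraries an age). In heart all 6 estimates lie above 0, from 0.55 to 1.56, while in kidney the change at 10 against 8 weeks is 0.50 for Nckap5 and -0.88 for Cdh4 and that at 12 against 8 weeks is near 0.

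In a fit of all 36 libraries the change at 12 against 8 weeks in heart exceeded that in kidney by a log2 of 1.38 ± 0.33 (SE) for Nckap5 and 1.71 ± 0.41 for Cdh4. The excess over liver was 1.89 ± 0.53 and 1.97 ± 0.46. At 10 against 8 weeks the difference between heart and kidney was 0.36 ± 0.33 for Nckap5 and 1.69 ± 0.43 for Cdh4. Both comparisons of ages rest on the same 8-week libraries. The fit treats libraries of different tissues as independent, which the labels do not settle.

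Nckap5l, which the choice of genes did not use, fell in heart while Nckap5 rose. It held 7.62, 6.28, 7.28 and 7.58 CPM at 8 weeks, 4.70, 5.06, 4.88 and 4.91 CPM at 10 weeks, and 4.26, 5.80, 5.27 and 4.80 CPM at 12 weeks. All libraries of the older ages lay below those of 8 weeks, as did those of 4.76% of all fitted heart genes at 12 weeks and 4.74% at 10 weeks. The log2 change was -0.54 ± 0.12 (SE, edgeR's quasi-likelihood test with Benjamini-Hochberg adjustment over all fitted heart genes, adjusted p = 0.0192) at 12 against 8 weeks and -0.56 ± 0.12 (adjusted p = 0.0286) at 10 against 8 weeks. At 12 against 10 weeks it was 0.02 ± 0.12 (adjusted p = 0.962). The call at 12 against 8 weeks was lost without replicate 1 of 12 weeks (adjusted p = 0.0517) or replicate 4 of 8 weeks (adjusted p = 0.0622), and that at 10 against 8 weeks without any 1 of 6 libraries, replicates 2 to 4 of 8 weeks and 1, 3 and 4 of 10 weeks (adjusted p up to 0.0909). Both calls were also lost in a model of all 36 libraries (adjusted p = 0.116 and 0.182) and on the first strand alone (0.102 and 0.188), and that at 10 against 8 weeks on the second strand alone (0.111) and, in a setting chosen after the data were seen, without replicates 2 and 4 of 10 weeks together (0.0711). In kidney Nckap5l changed by -0.19 ± 0.13 at 12 against 8 weeks (adjusted p = 0.626), and the heart and kidney changes were not shown to differ (-0.35 ± 0.27, adjusted p = 0.698).

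Per kilobase of exon sequence the pair could be set side by side. In heart Nckap5 made up 21.0% ± 3.43 of the summed level of Nckap5 and Nckap5l at 8 weeks, 41.1% ± 4.26 at 10 weeks and 50.5% ± 4.02 at 12 weeks (SD, n = 4). The lowest share at 10 weeks, 37.2%, was above the highest at 8 weeks, 24.5%. Nckap5 was chosen for its rise in heart, so the rise of this share is in part given by that choice. In kidney the share was 39.8% ± 4.95, 51.1% ± 2.53 and 43.4% ± 3.23. At 12 weeks heart held 0.863 CPM per kilobase of Nckap5 and 0.848 of Nckap5l.

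Cdh4 remained a small part of the cardiac cadherins. Over all 12 heart libraries it held 0.305 CPM per kilobase and was the sixth of 19 classical cadherins, with 0.373% of their summed level. Cdh5, the cadherin of endothelium, and Cdh2 held 40.4 and 38.5 CPM per kilobase, or 49.4% and 47.0% of the sum. Cdh2 lay between 292 and 397 CPM at 12 weeks, and its change at 12 against 8 weeks was 0.29 ± 0.09 (edgeR, adjusted p = 0.0760). These 2 ages overlapped through replicate 4 of 12 weeks alone. At 10 against 8 weeks the change of Cdh2 was 0.19 ± 0.09 (edgeR, adjusted p = 0.326). There its libraries were higher without overlap, as were those of 4.14% of all fitted heart genes. Of the summed level of Cdh4 and Cdh2 in heart, Cdh4 made up 0.468% ± 0.124 at 8 weeks, 0.704% ± 0.0700 at 10 weeks and 1.14% ± 0.285 at 12 weeks (SD, n = 4). Cdh4 was chosen for its rise in heart, so the rise of this share is in part given by that choice. In kidney, where Cdh1, the epithelial cadherin, led with 81.2% of the classical cadherins and Cdh2 was scarce, that share was 24.0% ± 2.06, 14.1% ± 2.65 and 20.4% ± 3.74.

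**Figure D3:**
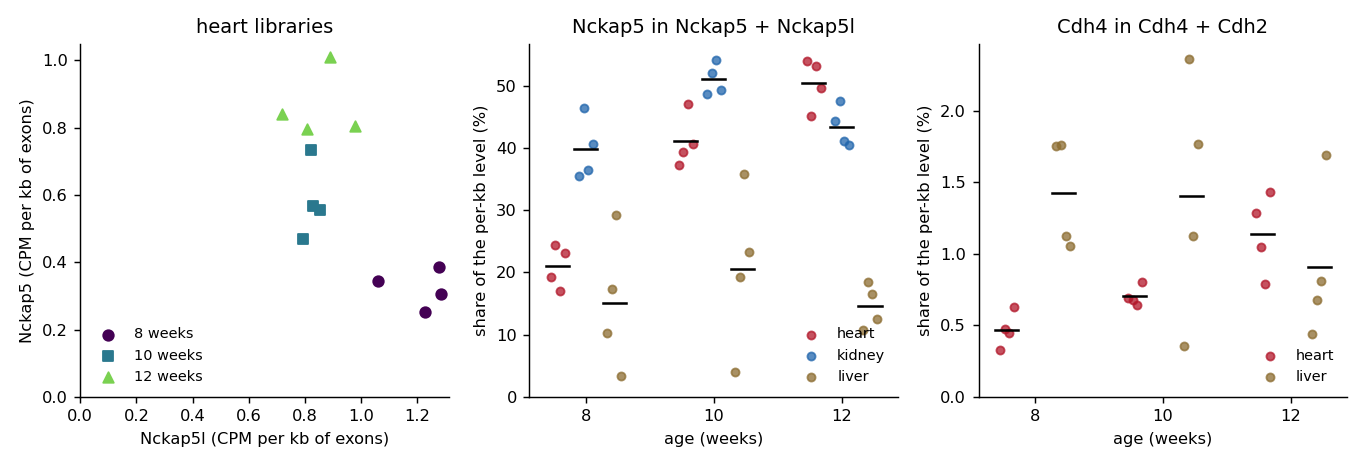
Left, Nckap5 against Nckap5l in the 12 heart libraries, both as CPM per kilobase of exon, by age. Middle and right, the percent that Nckap5 takes of Nckap5 plus Nckap5l, and Cdh4 of Cdh4 plus Cdh2. Values are per kilobase in each library, with a line at the group mean. Kidney, at 14.1% to 24.0%, is left out on the right. In heart the means go from 21.0% to 50.5% and from 0.468% to 1.14%. Nckap5 and Cdh4 were chosen for their rise in heart, so the rise of both shares is in part given by that choice.

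Other genes of cell adhesion and of the cytoskeleton around NCK and the microtubules were taken from 7 lists holding 127 genes besides Nckap5 and Cdh4, all but 14 of which were fitted in heart. At 12 against 8 weeks 6 of them passed an adjusted p of 0.05 upwards, where 2.36% of all fitted heart genes did, and 3 downwards, where 2.21% did. The median change of the fitted list genes was 0.06 on the log2 scale, beside 0.00 for all fitted genes, with 64 above 0. The comparison of 10 with 8 weeks had 2 passing upwards (0.76% of all genes) and 1 downwards (0.304%), with a median of 0.01. At 12 against 10 weeks none passed by edgeR, DESeq2 or limma-voom, where 0.0396% of all genes did by edgeR, and 17 had an unadjusted p under 0.05 by edgeR, as 11.7% of all genes did.

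Of the adhesion genes, Fat4 rose at 12 against 8 weeks from 8.22 ± 0.835 to 11.7 ± 1.09 CPM (log2 0.48 ± 0.11, adjusted p = 0.0222). Fat4 is a giant cadherin that pairs with Dchs1 in planar cell polarity. Ptprm, a receptor phosphatase of cell contacts, rose by 0.32 ± 0.08 (adjusted p = 0.0406), and Iqgap1, a scaffold at junctions, by 0.38 ± 0.09 (adjusted p = 0.0265). Nectin2, an immunoglobulin-like adhesion receptor, fell by 0.47 on the log2 scale (SE 0.10, adjusted p = 0.0185), from a range of 37.3 to 42.1 CPM to one of 24.8 to 33.8 CPM. None of the other 8 fitted classical cadherins passed at any comparison of ages in heart by edgeR, and 3 of them had an unadjusted p under 0.05 at 12 against 8 weeks, as 23.4% of all fitted heart genes did. Of the 17 genes of desmosome and intercalated disc none passed at 12 against 8 weeks, with a median of 0.05 and 1 unadjusted p under 0.05, fewer than the share of 23.4% over all genes. Pcdh15, a protocadherin of the hair cell tip link, passed at 10 against 8 weeks with 3.82 ± 0.81 (adjusted p = 0.0315) on 4 to 24 counts per library at 10 weeks and 0 to 3 at 8 weeks.

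On the side of the cytoskeleton, Clasp1, which stabilises microtubule plus ends, was higher at both older ages. Its means were 243 ± 17.0, 375 ± 39.8 and 355 ± 57.5 CPM (SD, n = 4), with a log2 change of 0.62 ± 0.11 at 10 against 8 weeks (adjusted p = 0.0122) and 0.52 ± 0.11 at 12 against 8 weeks (adjusted p = 0.0173). Apc, a Wnt pathway protein that also binds microtubules, rose at 12 against 8 weeks by 0.30 ± 0.08 (adjusted p = 0.0427), and Tubb2a, a beta-tubulin, fell by 0.39 (SE 0.10, adjusted p = 0.0427). Among the 18 NCK adaptors and partners Dock1, an activator of Rac, rose by 0.29 ± 0.08 (adjusted p = 0.0483), and Nckap5l fell as above. The adaptors themselves gave -0.03 ± 0.08 for Nck1 (adjusted p = 0.859) and -0.22 ± 0.10 for Nck2 (adjusted p = 0.214). Of the 10 genes of the WAVE complex, which promotes branched actin, none passed in heart at 12 against 8 weeks. Of these, 2 had an unadjusted p under 0.05, near the share of 23.4% over all genes.

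**Figure D4:**
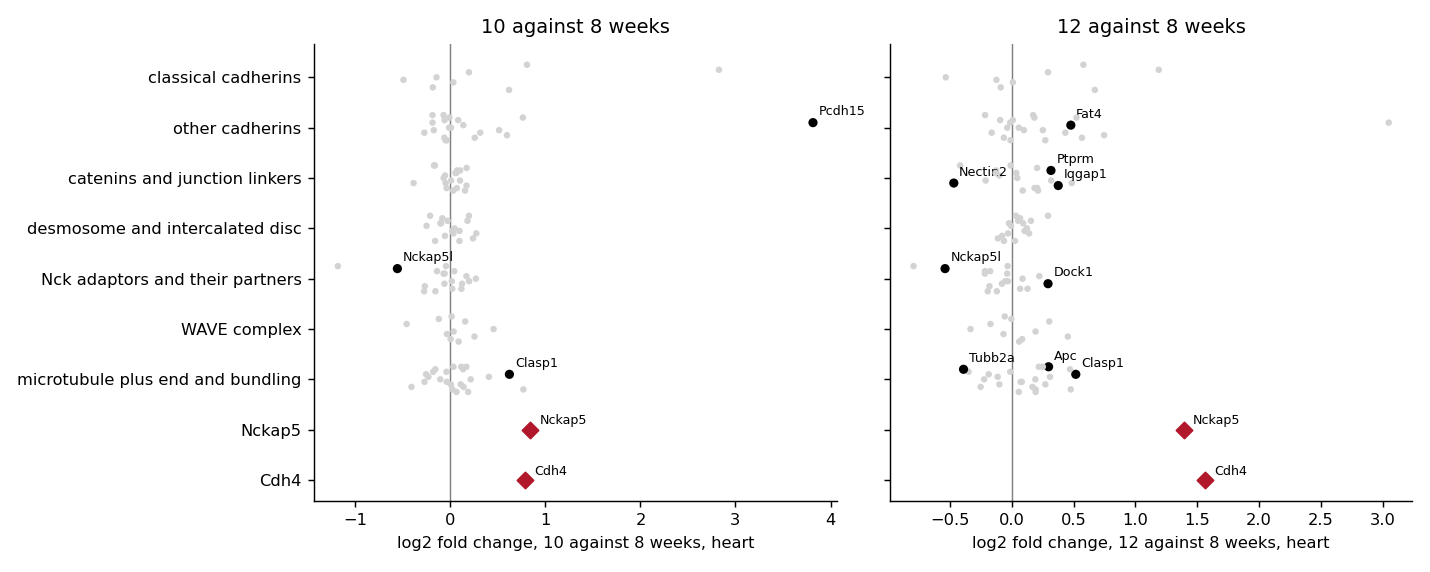
Log2 fold changes in heart at 10 against 8 weeks (left) and 12 against 8 weeks (right) for the fitted genes of 7 lists (circles, a line for each list) and for Nckap5 and Cdh4 (diamonds, not tested). Black named circles passed an adjusted p of 0.05, and apart from Pcdh15 at 3.82 they lie between -0.56 and 0.62. Nckap5 lies at 0.84 and 1.39 and Cdh4 at 0.79 and 1.56. Both were chosen for this rise, so their distance from the other genes is not a result.

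The number of passing genes depended on single libraries. Of the calls named above, only that of Clasp1 at 10 against 8 weeks held with each of the 12 heart libraries left out in turn (adjusted p up to 0.0479). At 12 against 8 weeks calls were lost in 2 of the 12 runs for Nckap5l, 3 for Clasp1 and for Nectin2, 4 for Fat4, 6 for Iqgap1, 7 for Apc and for Tubb2a, 8 for Ptprm and 9 for Dock1, with adjusted p up to 0.124, and that of Pcdh15 at 10 against 8 weeks was lost in 5 (adjusted p up to 0.107). Without replicate 2 of 12 weeks, or without replicate 4 of 8 weeks, 0 list genes passed upwards at 12 against 8 weeks, and without replicate 4 of 12 weeks 15 did. Downwards 0 passed without replicate 1 of 12 weeks and 6 without replicate 4 of 12 weeks, and at 10 against 8 weeks 5 passed upwards without replicate 2 of 10 weeks. The share of all fitted genes that passed in these runs is not given, so this spread is not shown to be particular to the lists. In kidney, 0 of 109 fitted list genes passed at 12 against 8 and at 10 against 8 weeks by edgeR (0.0567% and 0.929% of all genes did), with 12 and 20 at an unadjusted p under 0.05, where 11.7% and 16.5% of all genes were. DESeq2 called 0 and 9 of them (0.737% and 4.08% of all genes), and limma-voom 0 and 0. At 12 against 10 weeks Pcdh1 alone passed in kidney by edgeR (0.482% of all genes), with 0.22 ± 0.05 (adjusted p = 0.0490). There DESeq2 called 1 list gene upwards and 5 downwards (4.98% of all genes), and limma-voom 1 upwards (0.47% of all genes). In liver 0 of 94 passed at any comparison by edgeR (0.239%, 0.0204% and 0.0545% of all genes at 12 against 8, 10 against 8 and 12 against 10 weeks), with 14, 12 and 14 at an unadjusted p under 0.05, where 15.1%, 14.3% and 14.1% of all genes were. DESeq2 called 4, 3 and 5 in liver (2.89%, 2.43% and 3.68% of all genes), and limma-voom 0.

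The neighbours of both genes on the chromosome did not pass. Within 500 kb of Nckap5 23 genes are annotated and 3 were fitted in heart, with log2 changes of 0.12 to 0.31 at 12 against 8 weeks. The nearest on either side were Slc35f5, 317.678 kb away with 0.12 ± 0.08 (adjusted p = 0.380), and Mgat5, an N-glycan branching enzyme 374.216 kb away with 0.21 ± 0.13 (adjusted p = 0.333). Around Cdh4 56 genes are annotated and 15 were fitted, with changes of -1.18 to 0.27. All 15 lie beyond its downstream end, the nearest being Taf4, a subunit of the general factor TFIID, 12.779 kb away with -0.18 ± 0.09 (adjusted p = 0.248). By edgeR none of these genes passed, and 1 and 3 had an unadjusted p under 0.05 at 12 against 8 weeks near Nckap5 and Cdh4, beside 23.4% of all genes. DESeq2 called 1 near each (9.74% of all genes), and limma-voom none.

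Over the 12 heart libraries the genes most like Nckap5 in log2 CPM, among 12756 genes with a mean of at least 1 CPM, were Gfm1, a mitochondrial elongation factor (Pearson's r = 0.93), Msn, which links membrane and actin (0.93), Rars2, a mitochondrial tRNA synthetase (0.93), Prune2 (0.93) and Sspn, sarcospan of the dystrophin complex (0.92). For Cdh4 they were Prune2 (0.94), Dynll2 (0.94), Sqor (0.93), Pigk (0.93) and Acsl1 (0.92). Cdh4 and Nckap5 had r = 0.89 with each other, which put Cdh4 in place 23 for Nckap5 and Nckap5 in place 16 for Cdh4. After the mean of each age was taken off, that r was 0.01 over the same 12 libraries. Over the 9 group means it was 0.83. These values describe libraries that share age, tissue and dissection and carry no test.

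Markers of other cell types moved with age in the same heart libraries, and their part in the changes above was not tested. In bulk tissue fewer cells of a type and less RNA per cell cannot be told apart. The 4 mesothelial genes Wt1, Upk3b, Msln and Krt19 summed to 6.80 to 7.73 CPM at 8 weeks, 9.47 to 42.3 CPM at 10 weeks and 6.04 to 18.5 CPM at 12 weeks, and 3 of the 4 passed upwards at 10 against 8 weeks, where 0.76% of all genes did. The 5 liver genes summed to 0.117 to 0.536, 1.32 to 23.0 and 0.705 to 3.68 CPM, and of the 4 that were fitted 2 passed upwards at 10 against 8 weeks (0.76% of all genes). The albumin gene Alb was at 0 in all 4 heart libraries of 8 weeks. Mean levels of both members were lower in liver than in heart at every age. Replicates 2 and 4 of 10 weeks held the most liver RNA, and without both the change of Nckap5 at 10 against 8 weeks was 0.88 ± 0.18 and that of Cdh4 0.79 ± 0.27. The 5 kidney genes summed to 0.289 to 1.47 CPM over all heart libraries.

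Among cells of the heart itself, the 7 cardiomyocyte genes summed to 49344 to 51146 CPM at 8 weeks, 47288 to 51138 at 10 weeks and 52750 to 62242 at 12 weeks, and 3 of 7 passed upwards at 12 against 8 weeks, where 2.36% of all genes did. Of the 6 fibroblast genes Pdgfra and Lum passed upwards at both 10 and 12 against 8 weeks (0.76% and 2.36% of all genes), and the sum of all 6 was 601 to 630, 697 to 887 and 637 to 749 CPM. All 6 had a change above 0 at 10 against 8 weeks, while at 12 against 8 weeks 4 did and 2 lay below 0, the lowest at -0.16. The 9 genes of Schwann cells and nerve summed to 7.91 to 10.9, 11.3 to 14.2 and 10.6 to 12.1 CPM, with Th at 0 in every heart library and none passing by edgeR. The 5 endothelial genes summed to 357 to 458, 355 to 442 and 429 to 476 CPM.

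Exon length also went with the change in heart. Among the 5993 fitted genes with 7000 or more exon bases, to which both members belong, 3.74% passed upwards at 12 against 8 weeks, 58.7% had a change above 0 and the median was 0.05 on the log2 scale. Among the 462 genes under 1000 bases none passed upwards by edgeR and the median was -0.13. Downwards 1.72% of the longest and 3.03% of the shortest class passed. Over all fitted heart genes 2.36% passed upwards and 2.21% downwards. The medians of the longest and the shortest class at 10 against 8 weeks were 0.01 and -0.05. A log2 change over 1 at 12 against 8 weeks, as of both members, was fitted for 46 of the long genes, or 0.768%. This was the lowest share of any length class, beside 1.73%, 2.86%, 1.18% and 0.825% from the shortest class upwards. The part of length in the members' changes was not tested.

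**Figure D5:**
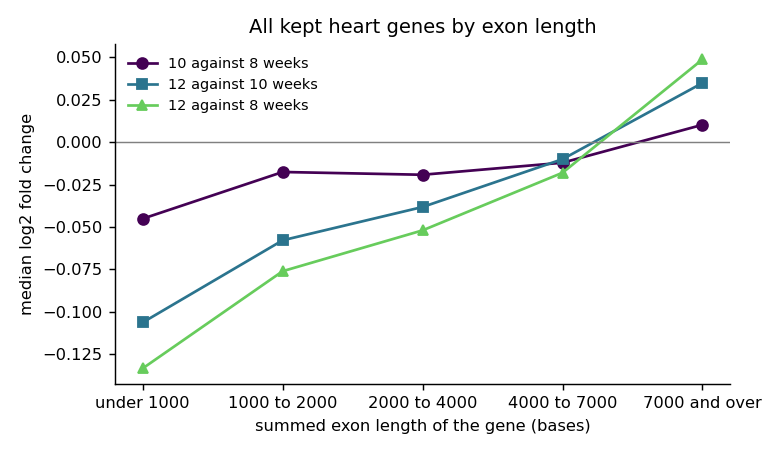
Median log2 fold change of all fitted heart genes in 5 classes of summed exon length, in bases, for the 3 comparisons of ages. For 12 against 8 weeks the median is higher in each longer class, from -0.13 under 1000 bases to 0.05 at 7000 and over, and at 10 against 8 weeks it goes from -0.05 in the shortest class to 0.01 in the longest, not higher at each step.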

How the data were processed

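The authors checked the reads with FastQC 0.11.9, trimmed them with cutadapt 4.2 and aligned the pairs with STAR 2.7.11b to GRCm39. The deposited counts are raw whole numbers of read pairs per gene. Pairs with more than 1 best place, or over more than 1 gene, are not in them, so reads shared with a near copy add to no gene. Counts summed over both strands were used, since 49.8% to 50.2% of the stranded counts fell on the first strand. Gene names and positions came from GENCODE M39 on the same build.

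CPM was computed on the total counted pairs. A gene was fitted in a tissue when, at 1 age or more, its mean count reached 10 with 2 or more libraries over 0. Changes came from edgeR 4.0.16 in R 4.3.3 (TMM factors, glmQLFit and glmQLFTest, a mean for each age, 12 libraries a tissue), and differences between tissues from a model of all 36 libraries. Adjusted p is by Benjamini-Hochberg over all fitted genes, with 0.05 as the threshold. Log2 CPM for correlations had a prior count of 2. The fit was tested on simulated counts with 200 changed genes. Nckap5, Cdh4 and all gene lists were chosen with earlier results of these data known. Genes named are those of the lists that passed in heart at either older age, the nearest fitted neighbours, the 5 most like genes of each member, and fixed relatives and markers. Alternatives were RLE factors, limma-voom 3.58.1, DESeq2 1.42.0, other filters, each strand, 2 ages only, all libraries, mitochondrial genes left out, a replicate block and each library left out. Tables and plots used python 3.11.15, pandas 2.3.3 and matplotlib 3.10.9.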

Additional observations from a re-analysis of the deposited data

Results flagged for a closer look

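Cdh4 in kidney at 10 weeks was 1.83 CPM in replicate 1, apart from 1.36 to 1.43 CPM in the other libraries, and Cdh2 in heart at 12 weeks was 291.8 CPM in replicate 4, apart from 388 to 397 CPM. These were marked as lone values by Dixon's limit among 36 groups examined, and chance marks about 1 in 20. Nckap5 at 12 against 10 weeks and Cdh4 at 10 against 8 weeks changed in opposite directions in heart and kidney. In both tissues the libraries of the 2 ages did not overlap. The difference was 1.02 ± 0.33 (SE) on the log2 scale for Nckap5 and 1.69 ± 0.43 for Cdh4. Neither difference was tested because the genes were chosen for it.

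The change with age differed between heart and liver by the interaction term of the model of all 36 libraries, adjusted over 19716 genes, for 5 of the 10 list genes that passed in heart, all higher in heart. These 10 were chosen on their change in heart, so the difference is not independent of that choice. Over all genes 2.35% passed with heart higher at 12 against 8 weeks, 0.71% at 10 against 8 weeks and 0.578% at 12 against 10 weeks. At 12 against 8 weeks the differences were 0.94 ± 0.18 for Ptprm (adjusted p = 0.00370), 0.78 ± 0.19 for Dock1 (adjusted p = 0.0150), 0.43 ± 0.11 for Apc (adjusted p = 0.0204), 1.37 ± 0.36 for Fat4 (adjusted p = 0.0262) and 0.58 ± 0.16 for Clasp1 (adjusted p = 0.0397). At 10 against 8 weeks Clasp1 differed by 0.73 ± 0.16 (adjusted p = 0.0225), and at 12 against 10 weeks Ptprm by 1.03 ± 0.18 (adjusted p = 0.00294). None of the named list genes differed between heart and kidney past this threshold. Few genes did at all, 0.112% of all genes at 12 against 8 weeks, 0.198% at 10 against 8 weeks and 0.0152% at 12 against 10 weeks. What these differences rest on was not tested.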

How the results depend on the processing

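The log2 changes of Nckap5 and Cdh4 in heart kept their direction under every setting. At 12 against 8 weeks they lay between 1.26 and 1.52 for Nckap5 and between 1.34 and 1.78 for Cdh4, and with each library left out in turn between 1.30 and 1.48 and between 1.42 and 1.70. At 10 against 8 weeks the left-out values were 0.73 to 0.93 and 0.66 to 0.92. Mean CPM in heart at 8, 10 and 12 weeks depends on the denominator. With mitochondrial genes left out of it the means were 5.69, 10.3 and 14.8 for Nckap5 and 1.65, 2.86 and 4.84 for Cdh4. On the first strand alone Nckap5 had 3.20 at 8 weeks and 9.39 at 12 weeks and Cdh4 0.864 at 8 weeks and 1.78 at 10 weeks. On the second strand Nckap5 had 8.88 at 12 weeks and Cdh4 1.63 at 10 weeks.

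Counts of passing list genes were less stable. At 12 against 8 weeks 6 passed upwards, with 11 by DESeq2, 3 with all 36 libraries in a single model and 3 on either strand alone, and 3 passed downwards, with 0 in the single model and 1 on the first strand. At 10 against 8 weeks 2 passed upwards, with 1 by limma-voom, 1 on either strand and 6 without a count filter. Downwards 1 passed, with 3 by DESeq2, 2 in a fit of 2 ages, 2 without a filter, 0 in the single model and 0 on either strand. Leaving out single libraries gave 0 to 15 and 0 to 6 at 12 against 8 weeks and 1 to 5 and 0 to 2 at 10 against 8 weeks. In a setting chosen after the data were seen, without replicates 2 and 4 of heart at 10 weeks, 3 passed upwards and 0 downwards. The cause of these differences was not tested, and the settings with libraries left out also hold fewer libraries. In either direction DESeq2 called 9.74% of all heart genes at 12 against 8 weeks and 2.42% at 10 against 8 weeks. For limma-voom the share at 10 against 8 weeks was 0.707%. Shares for the other settings are not given, so the differences are not shown to be particular to the lists. Of the 5 genes most like Nckap5, 1 stayed among the first 5 by Spearman's rho and 0 with age means subtracted, and of those most like Cdh4 3 and 0.

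Mice were assigned to groups by age at sacrifice, so libraries of different ages come from different animals. Same-numbered libraries of different ages had a median correlation of -0.00 in heart, from -0.09 to 0.15. Whether same-numbered libraries of different tissues at an age come from the same animal was not checked. A replicate block gave 1.38 for Nckap5 and 1.56 for Cdh4 at 12 against 8 weeks, and 7 upwards and 3 downwards among the list genes. Liver libraries held 1 to 21 counts of Nckap5 and 8 to 61 of Cdh4, and with single liver libraries left out the change of Cdh4 at 10 against 8 weeks lay between -0.18 and 0.49, so its sign was not settled at this depth.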
